A study of Mus musculus with 30 samples.

Results

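JAK kinases and STAT factors were followed across 5 growth hormone receptor genotypes in mouse liver and subcutaneous fat. They were chosen by name: every probe whose platform symbol is Jak1, Jak2, Tyk2, Stat2, Stat3, Stat5a, Stat5b or Stat6 was taken, which gave 14 probes of 8 genes among 46643 probes. Jak2 had 3 probes, Jak1, Tyk2, Stat3 and Stat6 had 2 each, and Stat2, Stat5a and Stat5b had 1 each. The study ran 30 Illumina bead arrays on RNA of male mice aged 4 months after an overnight fast. Mice labelled 569 or 391 carried a receptor cut short at that amino acid, those labelled Box1 a receptor altered in the Box1 segment, those labelled KO no receptor, and those labelled WT the wild-type receptor. Each genotype had 3 arrays in each tissue, and a genotype name stands for the arrays so labelled. The labels name neither the strain nor the animal behind an array, so the tests rest on the spread of these arrays alone, which may be technical.

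As background, the growth hormone receptor has no kinase of its own. It holds JAK2 at its Box1 segment, and after hormone binding JAK2 phosphorylates tyrosines of the receptor tail, where STAT5 proteins dock, are phosphorylated and move to the nucleus to switch on genes such as Igf1. Other cytokine receptors use the same kinases with other STAT factors, for example JAK1 with STAT3 for interleukin 6. The arrays measure transcripts, not phosphorylation, so they report how much mRNA of each kinase and factor was present and not its activity.

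All values are deposited ratios, each probe relative to its median in the 15 liver or 15 fat arrays, and differences are limma estimates on their log2 values with p-values adjusted over all 46643 probes. A probe is called where the adjusted p is under 0.05. Such a ratio keeps no level, so genes cannot be ranked by abundance, liver cannot be set against fat, and the tissue labels could not be checked against defining markers.

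In liver, Stat3, Stat5a and 1 probe of Jak2 were higher on average in 391, Box1 and KO than in WT and 569. For Stat3 all 569 arrays lay above all WT arrays and overlapped with KO, but 569 against WT was not called for either probe. How many of all probes separated in this way is not given here. Stat5b, the main growth hormone STAT of liver, was not called. The pooled comparison set 391, Box1 and KO together against WT and 569 together. It called 4 of 14 member probes (28.6%), all higher, against 9.61% of all probes, of which 8.69% were higher. The median log2 difference of the 14 probes was 0.18, and that of all probes was 0.02. The moderated F test for any difference from WT called the same count, 4 member probes, against 5.43% of all probes. The called probes were a pair for Stat3 and 1 each for Stat5a and Jak2 in both tests. In bulk tissue, fewer cells of a type and less RNA per cell cannot be told apart.

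Arrays shared slides in a way that bears on these calls. In each tissue WT and 569 lay on 1 slide and 391 and KO on another, and the Box1 arrays of both tissues shared the fifth slide. Every member called in liver was called across slides, so slide and genotype cannot be told apart there. Within a slide, 569 against WT called 0 member probes in liver, against 0.00858% of all probes. There 2 member probes had an unadjusted p under 0.05 in limma, both of Stat3, as had 3268 of all probes. KO against 391 also called 0 member probes, against 0.18% of all probes. There 0 member probes had an unadjusted p under 0.05 in limma, against 3819 of all probes.

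Markers of other cell types ran partly along the same divide in liver. In the pooled comparison 2 of 6 adipocyte markers, 2 of 6 endothelial markers and 1 of 7 lymphocyte markers were called higher, where 8.69% of all probes were. Of 6 macrophage markers 0 were called, though their median pooled difference was 0.26. That median was 0.30 for the endothelial markers and 0.11 for the lymphocyte markers, where all probes had 0.02. The mean log2 ratio of the adipocyte markers was 0.01 to 0.24 in 391, 0.06 to 0.16 in Box1 and −0.05 to 0.30 in KO, against −0.58 to −0.53 in WT and −0.60 to −0.44 in 569. These means were carried by few genes, as the median pooled difference of the 6 adipocyte markers was 0.07. Of 7 hepatocyte markers 2 were called higher and 1 lower. Their part in the member results was not tested.

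**Figure D1:**
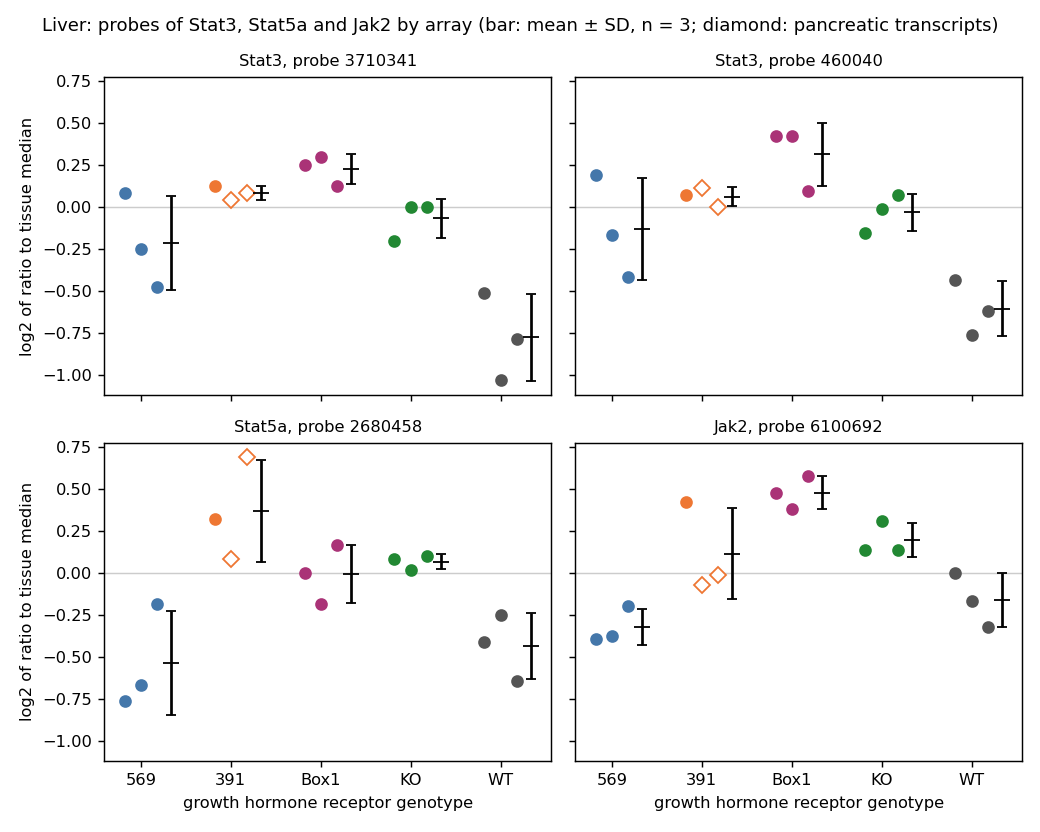
Log2 ratio to the liver median of each array for the 4 called probes, by genotype, with bars at the mean ± SD (n = 3) and diamonds for the 2 arrays labelled 391 that held pancreatic transcripts. The WT arrays are the 3 lowest for both Stat3 probes, and the WT and 569 arrays together lie low for Stat5a and Jak2.

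STAT3 is the factor of interleukin 6 type cytokines and of the acute phase response in hepatocytes. Stat3 probe 3710341 had liver ratios of 1.06, 0.84 and 0.72 in 569, 1.09, 1.03 and 1.06 in 391, 1.19, 1.23 and 1.09 in Box1, 0.87, 1 and 1 in KO, and 0.7, 0.49 and 0.58 in WT. Every mutant array lay above every WT array, 569 included. Stat3 probe 460040 had 1.14, 0.89 and 0.75 in 569, 1.05, 1.08 and 1 in 391, 1.34, 1.34 and 1.07 in Box1, 0.9, 0.99 and 1.05 in KO, and 0.74, 0.59 and 0.65 in WT. The same separation from WT held, though 569 came within 0.01 of it, and the probes ran together over the 15 liver arrays (r = 0.97). In order of means both probes gave Box1, 391, KO, 569 and WT, where 569 and WT did not overlap and the Box1 and 391 arrays did. The order of 391 and KO was without overlap for probe 3710341 and with overlap for probe 460040.

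The Box1 livers had the largest Stat3 difference from WT of the 4 mutants, at 1.0 ± 0.14 (SE) on the log2 scale for probe 3710341, which is 2-fold with a 95% interval of 1.64 to 2.45 (adjusted p = 0.00139). In 391 the difference was 0.86 ± 0.14 (adjusted p = 0.00434), and in KO it was 0.71 ± 0.14 (adjusted p = 0.0135). The 569 difference was 0.56 ± 0.14, on the same slide as WT, and did not pass (adjusted p = 0.294). Probe 460040 gave 0.92 ± 0.14 in Box1 (adjusted p = 0.00274), 0.67 ± 0.14 in 391 (adjusted p = 0.0212) and 0.57 ± 0.14 in KO (adjusted p = 0.0448). Pooled, probe 3710341 was higher by 0.58 ± 0.09 (adjusted p = 0.000797) and probe 460040 by 0.48 ± 0.09 (adjusted p = 0.00273), with groups that overlapped because 569 lay between. One fit of all 30 arrays, where the wider spread of fat enters the error, ended each of these calls, with adjusted p for the pooled difference of 0.137 for Stat3 probe 3710341 and 0.207 for Stat3 probe 460040.

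Single arrays decided some of the Stat3 calls. For Stat3 probe 3710341 the KO call was lost without WT replicate 2 (adjusted p = 0.0729), WT replicate 3 (adjusted p = 0.0507), KO replicate 2 (adjusted p = 0.0686) or KO replicate 3 (adjusted p = 0.0582). For Stat3 probe 460040 the KO call was lost without WT replicate 2 or 3, 569 replicate 2, Box1 replicate 1 or 2, or any of the 3 KO replicates, with adjusted p between 0.0566 and 0.191, and after quantile normalization (adjusted p = 0.0593). Its 391 call was lost without WT replicate 2 (adjusted p = 0.11), WT replicate 3 (adjusted p = 0.079), 391 replicate 1 (adjusted p = 0.0631) or 391 replicate 2 (adjusted p = 0.055), and without 391 replicates 2 and 3 together (0.68, adjusted p = 0.103), where 1 array remains. The Box1 calls of Stat3 held without any single array, for both probes.

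STAT5A is one of 2 closely related STAT5 proteins that growth hormone and prolactin activate. Stat5a had liver ratios of 0.59, 0.63 and 0.88 in 569, 1.25, 1.06 and 1.61 in 391, 1, 0.88 and 1.12 in Box1, 1.06, 1.01 and 1.07 in KO, and 0.75, 0.84 and 0.64 in WT. All arrays of 391, Box1 and KO lay above all WT arrays, and 569 overlapped with WT. Against WT, 391 was higher by 0.80 ± 0.16 (1.74-fold, 1.37 to 2.22; adjusted p = 0.0205), and against 569 by 0.90 ± 0.16 (adjusted p = 0.00633). Box1 and KO differed from WT by 0.43 ± 0.16 (adjusted p = 0.269) and 0.50 ± 0.16 (adjusted p = 0.16), which did not pass. In a limma fit of KO and WT alone the KO difference did pass (adjusted p = 0.0427). Pooled, Stat5a was higher by 0.63 ± 0.11 (1.55-fold, 1.32 to 1.81; adjusted p = 0.0015), and that call held under all 24 alternatives. The difference of KO minus 391, which shared a slide, was −0.30 ± 0.16 and did not pass (adjusted p = 0.688).

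The 391 livers held transcripts of other tissues. The mean log2 ratio of 9 exocrine pancreas markers was 3.94 in replicate 2, 2.90 in replicate 3 and −0.06 in replicate 1, against −0.14 to −0.01 in WT. Skeletal muscle markers averaged 2.90 in 391 replicate 2. Leaving out replicates 2 and 3 together leaves replicate 1 as the only 391 array, which the fit assumes to vary like the other groups. On that basis Stat5a in 391 differed from WT by 0.76 (adjusted p = 0.0649) and from 569 by 0.86 (adjusted p = 0.0253), and the pooled Stat5a difference was 0.61 (adjusted p = 0.0015). The Stat5a call of 391 against WT was also lost without WT replicate 3 (adjusted p = 0.102), 391 replicate 1 (adjusted p = 0.0513) or 391 replicate 3 (adjusted p = 0.0573), and in a fit of those 2 groups alone (adjusted p = 0.11).

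JAK2 is the kinase bound by Box1. Jak2 probe 6100692 had liver ratios of 0.76, 0.77 and 0.87 in 569, 1.34, 0.95 and 0.99 in 391, 1.39, 1.3 and 1.49 in Box1, 1.1, 1.24 and 1.1 in KO, and 1, 0.89 and 0.8 in WT. Box1 was the highest group, with all its arrays above all arrays of KO, 569 and WT. Box1 was higher than WT by 0.64 ± 0.12 (1.56-fold, 1.30 to 1.87; adjusted p = 0.0173), while 391 differed by 0.27 ± 0.12 (adjusted p = 0.373) and KO by 0.36 ± 0.12 (adjusted p = 0.189). Pooled, Jak2 probe 6100692 was higher by 0.50 ± 0.08 (1.42-fold, 1.26 to 1.60; adjusted p = 0.000969) and stayed called under all 24 alternatives. The Box1 call was lost without WT replicate 2 (adjusted p = 0.0707), WT replicate 3 (adjusted p = 0.103), Box1 replicate 1 (adjusted p = 0.0644) or Box1 replicate 3 (adjusted p = 0.0865). Without 391 replicates 2 and 3 the 391 difference in Jak2 was 0.59 (adjusted p = 0.0417), which is replicate 1 alone, the highest of the 3, with its spread assumed from the other groups.

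The other 2 Jak2 probes did not share this pattern. Jak2 probe 3780528 differed by −0.03 ± 0.07 in the pooled comparison (adjusted p = 0.873) and Jak2 probe 6550577 by 0.09 ± 0.05 (adjusted p = 0.364). Their correlations with probe 6100692 over the liver arrays were −0.05 and 0.38. Probes 3780528 and 6100692 are annotated to 1 Jak2 transcript accession, and probe positions were not used here, so the Jak2 result rests on 1 of 3 probes.

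The promoters of Jak2, Stat3 and Stat5a are shown because these genes had the probes called in the pooled liver comparison. Stat5b, Stat5a and Stat3 are neighbours on mouse chromosome 11, with no other protein-coding gene between them in RefSeq's GRCm38.p6, and Jak2 lies on chromosome 19. Each run is the 250 bases before a RefSeq start, 5′ to 3′ on the gene's strand, with GC boxes (GGGCGG or its complement CCGCCC) in capitals. The Jak2 run is chr19:29251553-29251802 on the plus strand, that of Stat3 is chr11:100939541-100939790 on the minus strand, and those of the Stat5a starts are chr11:100859406-100859655 and chr11:100860234-100860483 on the plus strand.
Jak2: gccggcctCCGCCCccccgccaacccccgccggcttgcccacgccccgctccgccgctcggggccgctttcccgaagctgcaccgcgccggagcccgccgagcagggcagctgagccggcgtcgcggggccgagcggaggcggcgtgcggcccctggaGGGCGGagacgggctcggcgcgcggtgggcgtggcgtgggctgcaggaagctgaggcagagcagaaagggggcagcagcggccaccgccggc
Stat3: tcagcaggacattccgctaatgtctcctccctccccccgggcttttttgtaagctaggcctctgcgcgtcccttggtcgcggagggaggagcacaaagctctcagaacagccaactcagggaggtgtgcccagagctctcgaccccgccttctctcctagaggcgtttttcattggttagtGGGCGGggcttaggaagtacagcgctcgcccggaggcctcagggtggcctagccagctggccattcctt
Stat5a, upstream start: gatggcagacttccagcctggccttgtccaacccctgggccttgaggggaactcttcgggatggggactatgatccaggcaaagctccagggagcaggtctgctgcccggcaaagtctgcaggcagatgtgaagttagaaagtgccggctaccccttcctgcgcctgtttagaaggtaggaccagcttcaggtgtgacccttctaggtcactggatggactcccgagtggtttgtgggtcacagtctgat
Stat5a, downstream start: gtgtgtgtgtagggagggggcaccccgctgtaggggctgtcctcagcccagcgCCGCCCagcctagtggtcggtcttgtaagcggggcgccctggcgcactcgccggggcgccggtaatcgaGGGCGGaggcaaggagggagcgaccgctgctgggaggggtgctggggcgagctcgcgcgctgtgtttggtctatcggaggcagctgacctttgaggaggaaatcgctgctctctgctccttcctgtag
Jak2 held 2 GC boxes, Stat3 held 1, and the Stat5a starts held 0 and 2. Of all 32851 RefSeq promoter windows of this length, 32.74% held a GC box. The STAT site TTCNNNGAA, which reads the same on both strands, was in none of the 10 windows of the 8 members and in 7.02% of all windows, which says only that these letters are not in those bases.

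Among the remaining members, JAK1 and TYK2 serve receptors for interferons and interleukins. Jak1 probe 106980601 had 1.18, 1.19 and 1.3 in Box1 livers against 0.93, 0.98 and 0.94 in WT livers, without overlap, and the other mutants were at 0.85 to 1.07. The Box1 difference of 0.36 ± 0.09 did not pass (adjusted p = 0.0615), although it did with array weights (adjusted p = 0.0485), without 569 replicate 1 (adjusted p = 0.0364) and without 391 replicate 1 (adjusted p = 0.0496). The pooled difference of this Jak1 probe was 0.17 ± 0.06 (adjusted p = 0.0751), and it passed without 569 replicate 1 (adjusted p = 0.0187) and with the 391 group left out (adjusted p = 0.0377). Jak1 probe 5910746 stayed between 0.76 and 1.2 and differed by 0.15 ± 0.10 in the pooled comparison (adjusted p = 0.482). The Tyk2 probes differed by 0.18 ± 0.11 for probe 1660465 (adjusted p = 0.404) and 0.07 ± 0.07 for probe 1740736 (adjusted p = 0.686).

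Stat5b, which carries most of the growth hormone signal in male mouse liver, had ratios of 1.01, 1.07 and 1.09 in 569, 0.98, 0.85 and 0.97 in 391, 0.84, 1 and 0.72 in Box1, 1.04, 1.04 and 0.76 in KO, and 1.03, 0.93 and 1.04 in WT. All genotypes overlapped with WT. The pooled Stat5b difference was −0.18 ± 0.08, opposite in sign to that of Stat5a, and did not pass (adjusted p = 0.222). The genes are close copies, and whether each probe reads 1 of them alone was not tested. Stat2, the interferon factor, differed by −0.12 ± 0.11 (adjusted p = 0.625). Stat6, the factor of interleukin 4, differed by 0.28 ± 0.11 for probe 1190010 (adjusted p = 0.128) and 0.24 ± 0.13 for probe 5720019 (adjusted p = 0.32). Stat6 probe 1190010 did pass in the pooled comparison without 569 replicate 3 (adjusted p = 0.0334), without 391 replicate 3 (adjusted p = 0.0479), without 391 replicates 2 and 3 together (0.42, adjusted p = 0.00769) and with the 391 group left out (adjusted p = 0.0344).

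**Figure D2:**
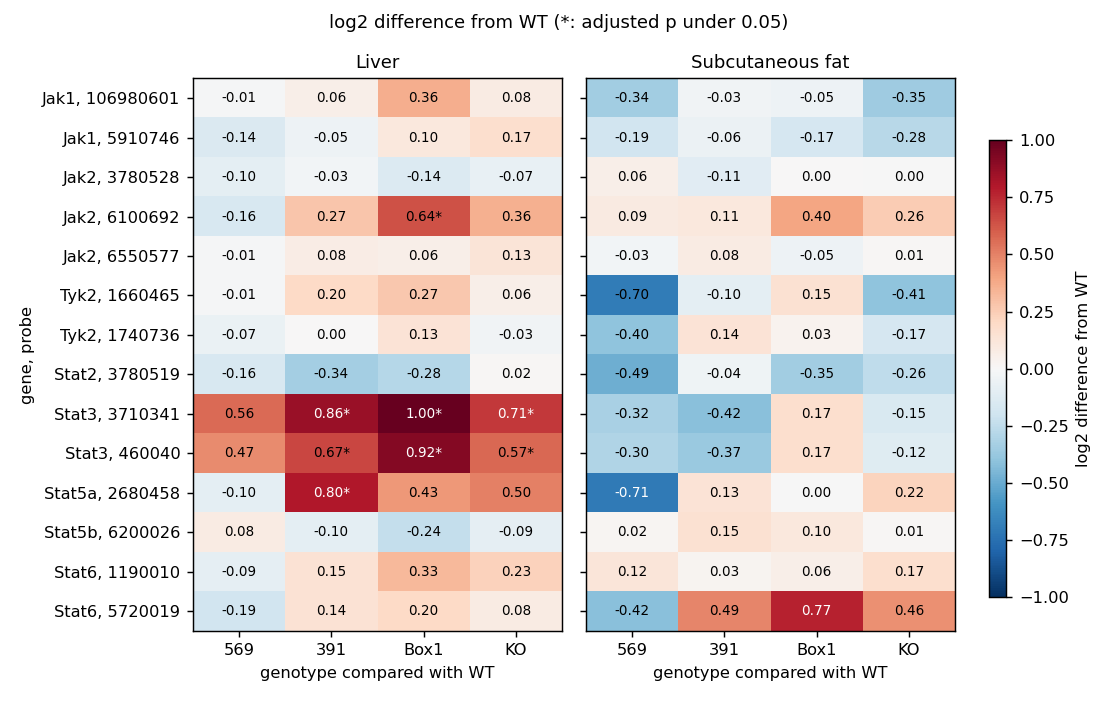
Fitted log2 difference from WT of each of the 14 probes (rows) in 569, 391, Box1 and KO (columns), in liver on the left and fat on the right, with an asterisk where the adjusted p is under 0.05. The 8 marked cells are all in liver and all above 0, in the rows of Stat3, Stat5a and Jak2.

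By genotype in liver, 391 against WT called 3 member probes, all higher (1.91% of all probes, 1.48% higher), namely both of Stat3 and Stat5a. Box1 against WT also called 3, all higher (1.32% of all probes, 1.06% higher), namely both of Stat3 and Jak2 probe 6100692. KO against WT called 2, both of Stat3 (1.93% of all probes, 1.44% higher). The 391 livers against 569 livers called Stat5a alone (4.7% of all probes, 4.31% higher). These comparisons share WT or 569 arrays. The median log2 difference of the members from WT was −0.08 in 569, 0.11 in 391, 0.23 in Box1 and 0.11 in KO, where all probes had medians from −0.02 to 0.02. Higher probes made up 90.5% of all calls in the pooled comparison and 78.5% of them after quantile normalization, and in 391 against 569 they made up 91.8% and 79.0%. The 4 pooled member calls kept their direction under both scalings.

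Genes with the liver pattern nearest to each called member were found by correlation of log2 ratios over the 15 liver arrays, which share genotypes and slides. For Stat3 probe 3710341 they were Serpina3n (r = 0.94), Itih4 (r = 0.92) and Obox3 (r = 0.91). Nisch (r = 0.92), Coil (r = 0.91) and Khk (r = 0.91) were nearest to Stat5a. Jak2 probe 6100692 was nearest to Cnih4 (r = 0.96), Rab11a (r = 0.95) and Numb (r = 0.94).

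**Figure D3:**
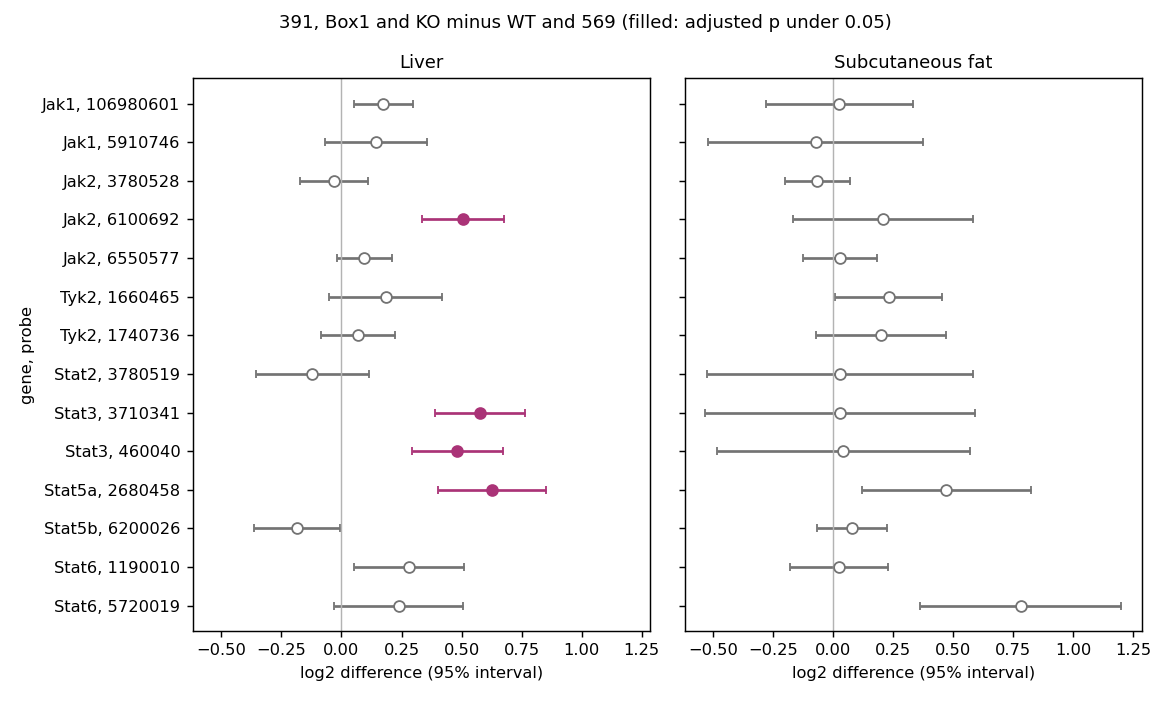
Log2 difference of 391, Box1 and KO minus WT and 569 for each of the 14 probes, with its unadjusted 95% interval, in liver and in fat, filled where the adjusted p is under 0.05. The filled liver points lie between 0.48 and 0.63, and no fat point is filled.

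In subcutaneous fat 0 member probes were called in any comparison, where few probes were called at all. The share of all probes was 0 for 569 against WT, 0.0129% for 391 against WT, 0.00214% for Box1 against WT and 0 for KO against WT. It was 0.00858% for 391 against 569, 0.0172% for KO against 391, 0.0193% for the pooled comparison and 0.015% for the F test. At an unadjusted p under 0.05, limma gave 2 member probes in 569, 0 in 391, 1 in Box1 and 1 in KO against WT. Of all probes it gave 4178 in 569, 2134 in 391, 2118 in Box1 and 2912 in KO. It gave 4 member probes in 391 against 569, 0 in KO against 391, and 3 each in the pooled comparison and the F test. Of all probes it gave 5658, 3124, 4249 and 3522 there, in that order.

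The spread within genotypes was larger in fat than in liver for 10 of 14 member probes. Over all probes its median was also larger in fat, at 0.15 (SD of log2 ratio) against 0.13 in liver. For Stat3 probe 3710341 the spread was 0.54 in fat, 0.30 in fat without 569 replicate 3, and 0.18 in liver. Skeletal muscle markers averaged between −2.64 and 4.54 in 569, −0.22 and 1.47 in 391, −2.04 and 3.77 in Box1, −0.53 and 3.16 in KO, and −2.60 and −1.82 in WT. Lymphocyte markers averaged −2.61 to −2.49 in 569, 0 to 0.75 in 391, −2.59 to 0.78 in Box1, −2.41 to 0.63 in KO, and −1.98 to 0.94 in WT, so all 569 arrays were low, as was at least 1 array of Box1, KO and WT. For these 7 markers 0 were called, and their part in the low 569 values of Tyk2, Stat5a and Stat6 was not tested. The 569 replicate 3 array stood apart, with adipocyte markers at −2.17, where the other fat arrays had −0.48 to 0.54, and it held the lowest fat ratio of Stat2 (0.39), Stat5a (0.39), both Stat3 probes (0.37 and 0.38), Stat6 probe 5720019 (0.35) and both Tyk2 probes (0.54 and 0.66).

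Stat6 probe 5720019 had fat ratios of 0.75, 0.81 and 0.35 in 569, 1.4, 0.84 and 1.19 in 391, 1.87, 1.21 and 1.1 in Box1, 1.1, 1 and 1.2 in KO, and 0.87, 0.71 and 0.82 in WT. Box1 and KO lay above all WT arrays, and 391 overlapped with WT by 1 array. Its pooled difference of 0.78 ± 0.19 did not pass (adjusted p = 0.254), and without 569 replicate 3 it was 0.59 (adjusted p = 0.165). The other Stat6 probe differed by 0.02 ± 0.09 (adjusted p = 0.958). Stat5a had fat ratios of 0.89, 0.64 and 0.39 in 569, 1.2, 1.12 and 0.95 in 391, 1, 1.14 and 0.84 in Box1, 1.07, 1.29 and 1.11 in KO, and 0.88, 1.26 and 0.87 in WT. The 2 lowest values were in 569, and the pooled difference was 0.47 ± 0.16 (adjusted p = 0.398).

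Tyk2 probe 1660465 had fat ratios of 0.86, 0.71 and 0.54 in 569 against 1.05, 1.22 and 1.1 in WT, without overlap and within a slide. The difference of −0.70 ± 0.16 did not pass (adjusted p = 0.552), and without 569 replicate 3 it was −0.52 (adjusted p = 0.49). Stat3 probe 3710341 had 1.54, 1.02 and 0.37 in 569, 0.94, 0.71 and 0.72 in 391, 1.69, 1.05 and 0.91 in Box1, 0.92, 0.83 and 1.09 in KO, and 1.01, 1 and 1.13 in WT. The 391 arrays lay below all WT arrays and the other genotypes overlapped with WT, and the pooled Stat3 difference was 0.03 with a 95% interval from −0.53 to 0.59. Fitted fat differences of Jak1 and Stat2 from WT lay between −0.49 and −0.03, with adjusted p of 0.648 or more.

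**Figure D4:**
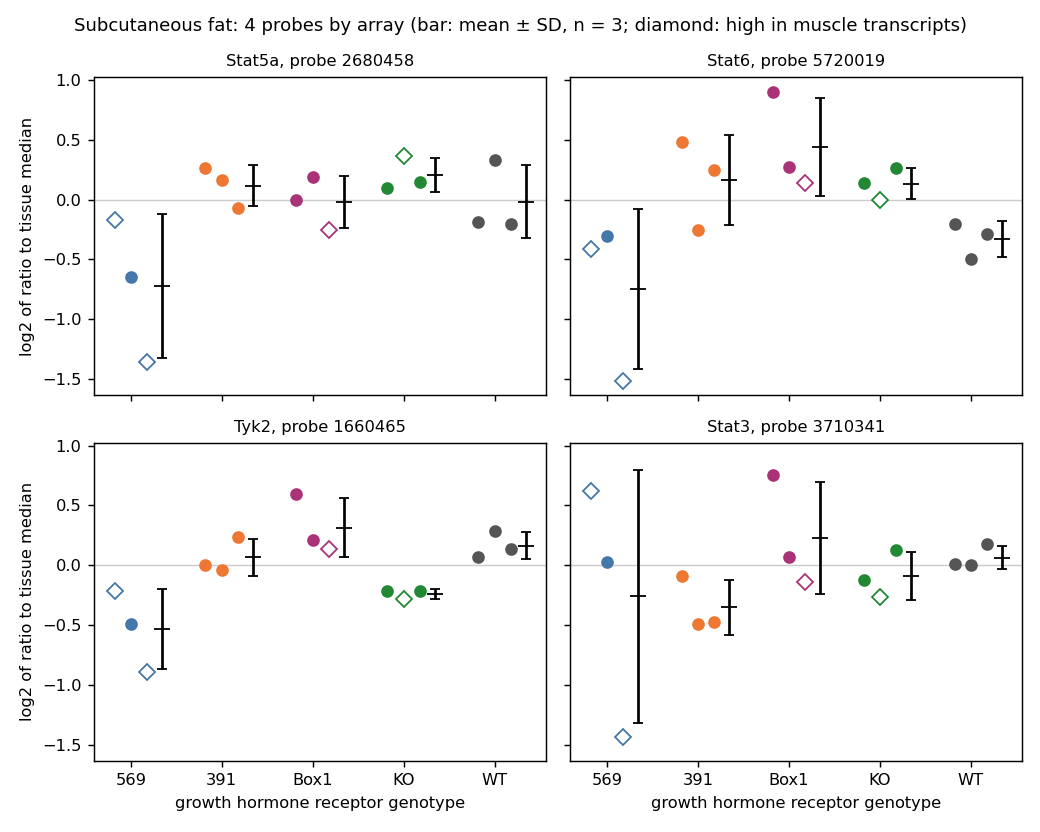
Log2 ratio to the fat median of each array for Stat5a, Stat6 probe 5720019, Tyk2 probe 1660465 and Stat3 probe 3710341, by genotype, with bars at the mean ± SD (n = 3) and diamonds for the 4 arrays high in muscle transcripts. The 569 replicate 3 array is the lowest point of each panel.

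Whether the pooled difference itself differed between tissues was tested with all 30 arrays. No member probe passed, against 0.866% of all probes. In limma 4765 of all probes had an unadjusted p under 0.05, among them 2 member probes. They were Stat5b, with a liver minus fat difference of −0.26 (adjusted p = 0.387), and Stat6 probe 5720019, with −0.54 (adjusted p = 0.436). For Stat3 probe 3710341 the difference was 0.55 with a 95% interval from −0.04 to 1.13 (adjusted p = 0.536). Without fat 569 replicate 3, Stat3 passed, at 0.84 for probe 3710341 (adjusted p = 0.0118) and 0.72 for probe 460040 (adjusted p = 0.0172). The F test between tissues also called 0 member probes, against 0.596% of all probes. At an unadjusted p under 0.05 it gave 0 member probes and 4801 of all probes.

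The genes around the members were read from lists, in the pooled liver comparison, where 9.61% of all probes were called and 8.69% were called higher. The lists were written with earlier results of these data known, so their counts describe these genes and are not independent support. Of 12 STAT5 targets of liver 10 fell and 1 rose, with a median of −3.38 where all probes had 0.02. Serpina1e, a protease inhibitor, had ratios of 0.73, 0.8 and 0.74 in 391, 1, 0.75 and 0.8 in Box1, and 0.81, 1.23 and 0.71 in KO, against 107.1, 109.8 and 111.7 in WT and 119.1, 99.29 and 100.2 in 569. Its fall of −7.02 was the largest of the list, followed by Cyp4a12a (−5.94), Igf1, the main growth factor downstream of growth hormone (−4.73), and Mup2 (−4.69). The Serpina1, Cyp4a12 and Mup families hold near-identical copies, so which copy was measured is uncertain. Bcl6, a repressor that competes with STAT5, was the 1 that rose, by 1.41 ± 0.23 (adjusted p = 0.00129).

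Inhibitors of the pathway had 5 of 19 genes higher and 2 lower, against 8.69% of all probes higher and 9.61% called, with a median of 0.10. Socs2 had ratios of 0.79, 0.83 and 0.57 in 391, 1.35, 0.87 and 0.79 in Box1, and 0.7, 1 and 0.82 in KO, against 5.85, 2.7 and 10.71 in WT and 6.75, 2.1 and 3.21 in 569. Socs2 fell by 2.41 ± 0.28 on the most variable of its 3 probes. Cish, another feedback inhibitor that STAT5 induces, fell by 1.74 ± 0.28 (adjusted p = 0.00102). The rises were small, led by Sh2b3, a JAK2 adaptor that restrains signalling (0.40 ± 0.08), and Socs5 (0.39 ± 0.06). Socs3, the feedback inhibitor of STAT3, was not called at −0.38 ± 0.14 (adjusted p = 0.106).

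Receptors that use JAK kinases had 3 of 14 measured genes higher and 1 lower, against the same shares, with a median of 0.10. Il6ra, which binds interleukin 6, had ratios of 1.15, 0.83 and 1 in 391, 1.48, 1.46 and 1.75 in Box1, and 1.28, 1.47 and 1.39 in KO, against 0.59, 0.39 and 0.42 in WT and 0.62, 0.57 and 0.58 in 569. The groups did not overlap, and this Il6ra probe rose by 1.30 ± 0.09 (adjusted p = 5.81e-07). It is the most variable in liver of the 5 Il6ra probes, and the others are not given here. Ifngr1, for interferon gamma, rose by 0.46 ± 0.10. Osmr, for oncostatin M, rose by 0.45 ± 0.10 on the most variable of its 3 probes. Ghr, the targeted gene, was lower on its more variable liver probe, by a log2 difference of −0.71 ± 0.15 (adjusted p = 0.0067), with −2.05 from WT in Box1 (adjusted p = 0.000205) and 0.23 in KO (adjusted p = 0.776). Where this probe lies relative to the altered part is not known here, so it may not check the labels.

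The same shares of all probes apply to the pooled counts for the targets of the other factors. Of 20 STAT3 targets and acute phase genes 1 was lower, Bcl3 (−0.57 ± 0.09), and 0 were higher, with a median of 0.09. Against WT alone, 3 of the 20 were higher in 391, where 1.48% of all probes were higher. Bcl3 was lower in 391 (−0.60, adjusted p = 0.0388), where 1.91% of all probes were called. In Box1 against WT 3 of the 20 were higher, where 1.06% of all probes were. In KO, where both Stat3 probes were called, limma called 0 of the 20 (median −0.01), against 1.93% of all probes. At an unadjusted p under 0.05 it gave 8 of the 20 in KO, and 5946 of all 46643 probes. In 569 limma also called 0, against 0.00858% of all probes. There 7 of the 20 had an unadjusted p under 0.05, as had 3268 of all probes. Those higher in 391 and in Box1 were Saa1 (3.32 in 391 and 3.81 in Box1), Lcn2 (3.86 in 391 and 3.36 in Box1) and Hp (0.80 in 391 and 0.63 in Box1), all acute phase proteins of liver. In 569 Saa1 differed from WT by 4.28 (adjusted p = 0.173), which did not pass. The KO differences of Saa1, Lcn2 and Hp are not given here. The count of 0 called in KO does not show that they stayed at the WT level. Of 19 interferon targets Usp18, which turns off interferon signalling, was higher by 0.66 ± 0.15, with a list median of 0.07. Of 9 STAT6 targets Arg1, an enzyme of the urea cycle, was higher by 0.78 ± 0.19 (adjusted p = 0.0163), with a list median of −0.01.

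Jak3 and Stat4, the other measured family members, were not called, at 0.31 ± 0.12 (adjusted p = 0.141) and 0.10 ± 0.10 (adjusted p = 0.653). In fat the same lists held 1 call in the pooled comparison. Igfals, the carrier subunit of circulating IGF1, had fat ratios of 1.31, 1 and 0.84 in 391, 0.54, 0.58 and 0.86 in Box1, and 0.66, 0.66 and 0.69 in KO, against 2.31, 4.07 and 2.16 in WT and 2.69, 2.59 and 1.67 in 569. All arrays of the 3 mutants lay below all arrays of WT and 569, and Igfals was lower by a log2 difference of −1.70 ± 0.17. Hepatocyte markers in fat averaged −0.55 to 1.81 in WT, −0.15 to 0.09 in 569 and −0.35 to −0.19 in 391. They averaged −0.52 to 2.97 in Box1 and −0.34 to 0.42 in KO. The WT array at 1.81 was replicate 2, which had the Igfals ratio of 4.07. Other arrays paired otherwise: the Box1 array at 2.97 had an Igfals ratio of 0.58, and the WT array at −0.55 had 2.31. The part of liver transcripts in the Igfals result was not tested.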

How the data were processed

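RNA of liver and subcutaneous fat was measured on Illumina bead arrays, 3 per genotype and tissue. The authors deposited a ratio of each probe to its own tissue median, read from the values: that median was exactly 1 for all 46643 probes in each tissue, with 2 decimals and array medians between 0.98 and 1.01. How the authors corrected background and normalized is not given in the sources used here. Ratios were log2 transformed with no offset and no filter, where the plan assumed intensities might need both, and one linear model per tissue was fitted (limma 3.58.1 with eBayes, under R 4.3.3), or one of all 30 arrays for tissue contrasts. Two-sided p-values were adjusted over the whole array (Benjamini-Hochberg). The fit was tested on simulated data.

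The members and lists were chosen with earlier results of these data known. All member probes are given in the text or the figures, some of them for fat in the figures alone. For a list, up to 4 called genes of largest pooled difference are named, each by its probe of largest SD. That choice leans toward probes that varied, and other probes of a list gene are not given. Probes were named from the platform annotation (1 symbol for 32794 probes), and promoters and gene order come from RefSeq's GRCm38.p6. Signal over background is unknown, and 3 arrays a group limit the precision. Alternatives were quantile normalization, median centring, an offset of 0.1, a filter at a ratio of 0.1, fits of only the groups compared or of all 30 arrays, array weights, a robust prior, leaving out arrays, leaving out 391 from the pooled group, and averaging a gene's probes. Leaving out the 4 fat arrays whose muscle markers averaged above 3 was added after seeing the data.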

Additional observations from a re-analysis of the deposited data

How the results depend on the processing

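No member call changed direction under any alternative. One fit of all 30 arrays changed the most: it called 0 member probes in liver for 391, Box1 and KO against WT, for 391 against 569 and for any genotype, and 2 in the pooled liver comparison (Stat5a and Jak2), while in fat it called 1 each for 391 against 569 (Stat5a), the pooled comparison (Stat6) and any genotype (Tyk2). Quantile normalization left 1 member probe for KO against WT. With only the groups compared, 391 against 569 called 0, and without 391 replicates 2 and 3, which leaves 1 array in 391 with its spread taken from the other groups, it called 3 (Jak2, Stat5a and Stat6). Leaving out 1 array gave 4 to 5 member probes in the pooled liver comparison, 2 to 4 for Box1 against WT, 1 to 3 member probes for 391 against WT, 0 to 2 for KO against WT, 1 to 2 for 391 against 569, and 0 to 2 for the pooled difference between tissues, which array weights put at 1 (Stat3). Leaving out the 4 muscle-rich fat arrays removed 569 replicates 1 and 3, Box1 replicate 3 and KO replicate 2. That leaves 569 replicate 2 as the only 569 array in fat, so this setting cannot show whether the fat results hold.

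Counts over all probes moved too. In the pooled liver comparison they ranged from 1470 to 5279 around 4482, for 391 against WT from 260 to 1302 around 890, for Box1 from 233 to 1168 around 616, for KO from 347 to 1418 around 899, and for 391 against 569 from 413 to 2451 around 2190. In fat the pooled count was 2 to 508 around 9. Averaging the probes of a gene gave 2 receptors, 2 STAT3 targets, 2 interferon targets and 1 of Jak3 and Stat4 called in the pooled liver comparison. The cause of these changes was not tested. Signal over background is unknown, so a probe near background cannot be recognised.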
